A study of Homo sapiens with 6 samples.

Results

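The growth needs of HAP1 cells with a mutant SETD2 were read by comparing guide abundance in the SETD2-mutant cells with that in the guide library they received. HAP1 is a human line with a mostly haploid genome that descends from leukaemia cells, so a guide has to cut 1 copy of most genes to remove them. Members were the guides that averaged 30 counts or more across the library samples, 71470 of 71626 in the table, and they targeted 7090 of 7093 genes after genes with under 3 such guides were set aside. Of the 6 samples in the series, 4 give the changes described here, 2 labelled library and 2 labelled HAP1 with the genotype SETD2-mutant. The 2 samples labelled parental, HAP1 without that mutation, are set beside them and also entered the fit, where they share in the estimate of the spread and so in the p-values. Per the labels, each line was transduced at a multiplicity of infection of 0.7, then divided into its replicates and grown for 12 doublings under puromycin, which kills cells without the guide vector. The labels give neither the SETD2 allele, nor the number of clones, nor the way the library samples were taken. Replicates of a line shared a transduction, so the spread used to rank guides is that between samples divided after it. The p-values of genes below rest on the ranks of a gene's guides, which are treated as independent, and do not measure that spread.

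SETD2 places the third methyl group on lysine 36 of histone H3 (H3K36) along transcribed genes, and NSD-family enzymes and ASH1L place the earlier methyl groups. Proteins with PWWP or chromo domains read this mark and direct acetylation, DNA methylation and splicing, and H3K36 methylation hinders methylation of lysine 27 by the Polycomb complex PRC2. In a pooled knockout screen, guides against genes that cells need are lost as the population doubles, and guides against genes that restrain growth gain in share. The purpose stated by the series' title and design is a search for genes on which SETD2-mutant cells depend. Guide sequences are not used here, and each guide is referred to by its gene.

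The library samples held 38428425 and 34679351 counts, and the SETD2-mutant samples 25082426 and 33878004. The members had no guide at a count of 0 in the library, 344 in SETD2-mutant replicate 1 and 192 in replicate 2, so replicate 1 was the shallower of the pair and lost more guides entirely. The guides nearest the library limit included ones against SLC17A5 and TMED4 just outside it, each with a mean library count of 29.5. Just inside it were guides against HTR2B, MCTP1 and TPCN1 with 30.5, 30.5 and 31. Over genes, the median absolute difference between the SETD2-mutant replicates was 0.0995 on the log2 scale, and over guides it was 0.275.

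The change of a gene is its guides' average log2 fold change from edgeR, SETD2-mutant minus library, with the standard error (SE) over those guides. Its level in a sample is the median over its guides of CPM, the count scaled to a common library size. Statements that levels of the groups do not overlap are descriptions and add no support, since the genes were called from the same counts. Guides were tested with edgeR's quasi-likelihood test and combined per gene by robust rank aggregation (RRA), which asks in each direction whether a gene's guides lie closer to the end of the ranking than chance gives. Calls of depletion or enrichment need a Benjamini-Hochberg adjusted p below 0.05, and every adjusted p below is from this edgeR and RRA test unless another is named. Values for a single replicate are differences of log2 CPM with a prior count of 2, so they lie closer to 0 than the fitted change for genes whose guides were nearly lost.

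In the SETD2-mutant cells 641 genes fell, 9.04% of those tested, and 79 rose, 1.11%. Counts of list members below are to be read beside these shares, and some lists lay near them. The median over all genes was -0.05. Depleted genes ranged from -6.72 to -0.63 with a median of -2.40, and in 417 of them every guide was lower than in the library. Enriched genes covered a narrower range, 0.21 to 2.49 with a median of 0.62, and 8 of them exceeded 1. In 21 of the 79 every guide was higher. Whichever sample was left out, the genes called were not all the same, and enriched genes kept their calls less often than depleted ones.

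The scale has no fixed zero. The 100 guides labelled dummyguide, whose design the labels do not describe, had median log2 changes of 0.87 and 0.92 in the mutant replicates and 0.65 and 0.74 in the parental replicates. When counts were scaled on those guides, changes moved by -0.92 in the median. Calls of depletion then numbered 550 and calls of enrichment 35, and depleted genes made up 94.0% of calls against 89.0%. Since this scaling moves all genes by nearly the same amount, an enriched gene whose change was smaller than that shift goes below 0. Of the 79 enriched genes 9 then stayed above 0 and 25 were called. RRA ranks guides against each other, so a call of enrichment does not need a change above 0. Among the enriched genes named here, NF2, SLC25A1, PDHA1, PDHB, PIK3R1, GSTT1 and MBD2 kept a change above 0, and the other enriched genes moved below it.

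Genes on part of chromosome 15 were lower than elsewhere without being called. Between 60 and 70 Mb in GRCh38 the median of 24 uncalled genes was -0.78, between 70 and 80 Mb that of 35 was -0.72, and between 80 and 90 Mb that of 14 was -0.64, a window with few genes. In the parental cells the same windows had -0.47, -0.46 and -0.35. The other windows of chromosome 15 ranged from -0.18 to 0.42 in the mutant. MAP2K1, PKM, CSK, SIN3A, IDH3A and FANCI lie in these windows, and the part of this shift in their values was not tested. Uncalled genes were higher on some other chromosomes, with medians of 0.20 over 267 genes of chromosome X, 0.22 over 84 of chromosome 18 and 0.44 over 3 of chromosome Y in the mutant, and of 0.20, 0.08 and 0.44 in the parental cells. The enriched genes PDHA1, KDM5C and PHF6 lie on X, MC4R and MBD2 on 18 and UTY on Y, and the part of these shifts in their values was not tested.

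Among 7 measured enzymes listed as H3K36 methyltransferases, NSD1 was the member called, beside 9.04% depleted over all genes. The list's median was 0.09. NSD1 (chromosome 5, 177131798 to 177300213 in GRCh38) adds up to 2 methyl groups to H3K36, mainly outside the regions that SETD2 marks. Its median guide level was 15.9 and 15.6 CPM in the library and 6.5 and 6.7 CPM in the SETD2-mutant samples. Both mutant samples lay well below both library samples. The change was -0.96 with an SE over guides of 0.21, an adjusted p of 0.0054 and replicate values of -0.95 and -0.98. The guides did not all respond alike. The guide that fell furthest went from 798 and 747 counts in the library to 140 and 161 in the mutant samples, a change of -2.03, and 9 of 10 guides were lower. The exception had 447 and 402 counts in the library and 354 and 484 in the mutant samples, a change of 0.30. The call held with each sample left out, with adjusted p between 0.000948 and 0.0449, but not when RRA scored the top 0.1 of the ranking in place of 0.25, where the adjusted p was 1. Among the 641 depleted genes NSD1 lay at the weak end, since 603 of them fell below -1.

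SETD2 itself (chromosome 3, 47016436 to 47164840) was not called, with a change of -0.61, an SE of 0.481 and an adjusted p of 0.739. Its level was 32.1 CPM in both library samples and 20.5 and 25.6 CPM in the mutant samples. Its guides divided: of 10, 5 were lower than in the library and 5 higher. The lowest went from 774 and 690 counts in the library to 49 and 50 in the mutant samples, and the next from 1409 and 1327 to 115 and 130. The highest went from 1267 and 1130 to 1629 and 1983. The same 2 low guides changed by -3.27 and -2.16 in the parental samples, so their loss was seen in both lines. The guides as a set did not behave alike in the lines. In the parental samples they ranged from -3.27 to -0.05, so none was higher than in the library. The direct test between the lines, described below, called SETD2 higher in the mutant, by 0.50. ASH1L at 0.02, SETD3 at 0.24, SETMAR at 0.25, SMYD2 at 0.29 and WHSC1L1, an NSD-family enzyme now named NSD3, at 0.09 were not called.

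Machinery for making proteins and processing RNA gave deep losses. Of 51 measured proteins of the cytosolic ribosome, 50 fell, and the list's median was -4.13 against -0.05 over all genes. RPS4X, a small-subunit protein, had the lowest change of any gene, -6.72, and its level went from 13.1 and 12.7 CPM in the library to 0.14 and 0.148 in the mutant samples. RPL23A, RPL34 and RPL38 of the large subunit changed by -6.24, -5.69 and -5.64. RPS24, named after its values were seen as the exception, was not called at -0.45, with 4 of 10 guides below the library. All 9 measured spliceosome genes fell, with a median of -3.18. They included SRSF3, an SR protein that directs exon choice, at -4.07, SF3B1 and SF3B3, which recognise the branch point, at -2.79 and -3.51, and the helicase DHX15 at -3.69. NHP2L1, which binds U4 snRNA and box C/D RNAs, fell by 5.93.

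The gene with the lowest RRA p was NPM1 (chromosome 5, 171387116 to 171410900), a nucleolar chaperone of ribosome assembly. Its level was 57.3 and 54.7 CPM in the library and 10.8 and 13.2 CPM in the mutant samples, and the groups did not overlap. The change was -2.65 with an SE of 0.382 and an adjusted p of 2.42e-11. All 10 guides were lower, from -4.70 to -1.07. CDK9, the kinase that releases paused RNA polymerase II, followed at -2.89, with levels of 49.3 and 50.2 CPM against 7.0 and 6.26. HINFP, an activator of histone H4 genes, at -3.03, and CDIPT, which makes phosphatidylinositol, at -4.37 were also among the 20 depleted genes with the lowest p.

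Genes of DNA replication fell almost as a block. Of 20 measured members of the replication machinery 19 fell, with a median of -2.65. RFC3 of the clamp loader changed by -5.34, the primase PRIM1 by -3.90 and the sliding clamp PCNA by -3.57. The ATR checkpoint, which restrains origin firing and mitosis when replication stalls, and the enzymes that supply deoxynucleotides had 15 of 17 members depleted and a median of -2.75. WEE1, which holds CDK1 inactive, changed by -3.55, ATR by -2.88, RAD9A of the checkpoint clamp by -3.44, and the ribonucleotide reductase subunits RRM1 and RRM2 by -3.48 and -3.73. WEE1 levels were 37.0 and 36.8 CPM in the library and 4.69 and 3.23 in the mutant samples.

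Repair pathways differed in how many members were called. All 13 measured Fanconi anaemia genes, which unhook crosslinked strands, fell, with a median of -1.57. UBE2T, the ubiquitin-conjugating enzyme of that pathway, changed by -2.57, ERCC1 by -2.46 and FANCI by -2.11. Of 24 genes of homologous recombination 17 fell, including BRCA1 at -2.78, and RAD51D and XRCC3 at -2.78 and -2.21. Mismatch repair had no call among 8 genes, with a median of 0.06, and its most changed members were EXO1 at -0.87, PMS2 at 0.40 and PMS1 at 0.33. PMS2 lay near the limit, with an adjusted p for enrichment of 0.0525, and of 0.0394 without SETD2-mutant replicate 2 and 0.0485 without parental replicate 1. End joining gave 5 of 11, with XRCC6 and XRCC5, the Ku pair, at -2.34 and -1.83, the ligase LIG4 at -1.52 and the kinase PRKDC at -1.33. Base excision and single-strand break repair gave 4 of 20, among them APEX2 at -2.63, LIG3 at -1.95 and PARP1 at -0.92.

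Of 8 measured genes of a list of cohesin, the SMC5/6 complex and the associated NIPBL, HDAC8 and CTCF, 6 fell, with a median of -2.23. SMC3 and RAD21 of the cohesin ring changed by -3.78 and -2.41, and SMC6 by -2.31. Among 18 mitotic kinases and their relatives 8 fell. PLK1, which drives mitotic entry and spindle assembly, changed by -5.45, CDK1 by -3.84, AURKA and AURKB by -2.96 each, and PLK4, which starts centriole duplication, by -2.07. Of 12 cyclin-dependent kinases 4 fell and 2 rose. CDK7, which activates other CDKs, changed by -2.30.

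SETD2-mutant cells lost guides against the respiratory chain. Complex I, which passes electrons from NADH to coenzyme Q, had 15 of 18 measured members and assembly factors depleted and a median of -2.35. NDUFA1 was the third gene by RRA p: its level was 27.2 and 26.5 CPM in the library and 3.79 and 3.65 in the mutant samples, which did not overlap, a change of -2.77 with an SE of 0.178 and an adjusted p of 5.35e-10. NDUFC2 changed by -3.18, NDUFB8 by -2.90, NDUFA11 by -2.80 and the assembly factor ACAD9 by -2.73. Of 26 genes of complexes III to V and cytochrome c 17 fell, with a median of -2.09. CYCS, cytochrome c itself, changed by -4.72, ATP5A1 of the ATP synthase by -3.63, the complex III assembly factor BCS1L by -3.50 and COX4I1 of complex IV by -2.94. COQ2, which builds coenzyme Q, was the member called of 3 in its list, at -2.43.

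In the citric acid cycle 8 of 24 genes fell, with a median of -0.44. IDH3A, the catalytic subunit of NAD-dependent isocitrate dehydrogenase, changed by -2.55 and its partner IDH3B, named after its values were seen, by -1.14. OGDH and DLST of the 2-oxoglutarate dehydrogenase changed by -2.24 and -1.89, SDHD by -1.61 and FH, which hydrates fumarate, by -1.39. The pyruvate dehydrogenase list held subunits of the complex, its kinases and a phosphatase, pyruvate carriers, pyruvate carboxylase and a lipoylation gene. Of these 14 genes 3 rose and 1 fell. Those that rose were subunits of the complex, which feeds the cycle with acetyl-CoA. PDHA1 (chromosome X, 19343927 to 19361718), its E1 alpha subunit, had levels of 15.6 and 16.5 CPM in the library and 38.1 and 33.8 in the mutant samples. Both mutant samples lay above both library samples, the change was 1.19 with an SE of 0.117 and an adjusted p of 5.86e-05, and all 10 guides were higher. PDHB, the E1 beta subunit, changed by 1.12 and DLAT, the E2 subunit, by 0.80. The depleted member was DLD, an E3 subunit that other dehydrogenases share, at -0.87, and its call was lost without SETD2-mutant replicate 2, at -0.81 with an adjusted p of 0.418. LIAS, which makes the lipoyl group, was at -1.14 and not called, though without library replicate 2 its adjusted p was 0.0479.

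Glycolysis and lactate export gave 13 depleted genes of 31 and a median of -0.65. The members called included enzymes of the trunk of the pathway, with TPI1 at -5.08, ENO1 at -5.04, GPI at -4.75, PGAM1 at -4.71 and ALDOA at -4.67. PKM, the pyruvate kinase, changed by -3.52. SLC16A1, the carrier MCT1 that moves lactate across the plasma membrane, had levels of 24.3 and 24.9 CPM in the library and 4.41 and 5.33 in the mutant samples. The groups did not overlap, and the change was -2.31 with an SE of 0.26. Of 7 measured genes of the pentose phosphate pathway 4 fell, with a median of -2.06: PGD at -3.93, RPE at -2.94, PGLS at -2.17 and TKT at -2.06.

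Synthesis of pyrimidines and purines differed in the number of calls. None of 5 pyrimidine genes was called, and their median was 0.12. CAD (chromosome 2, 27217369 to 27243943), which carries out the opening steps, had levels of 11.3 and 11.4 CPM in the library and 12.6 and 11.7 CPM in the mutant samples, a change of 0.12 with an SE of 0.27. DHODH, the mitochondrial enzyme of the pathway, was at 0.14 and UMPS, which completes UMP, at 0.00. CMPK1, which phosphorylates CMP and UMP, was at -1.46 with an adjusted p of 0.074, and 0.0469 without SETD2-mutant replicate 1. Of 11 purine genes 5 fell, with a median of -1.14: ADSL at -2.42, IMPDH2 at -2.29, PAICS at -2.04, GART at -1.58 and PFAS at -1.37. The call of GART was lost without SETD2-mutant replicate 1, with an adjusted p of 0.108, and without replicate 2, with 0.152. ATIC, which closes the purine ring and was named after its values were seen, was at -0.51 and not called. Nucleotide salvage gave no call among 11 genes, with a median of 0.10.

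Of 14 enzymes of folate one-carbon metabolism 2 fell. SHMT2, the mitochondrial serine hydroxymethyltransferase, changed by -0.96. The call of SHMT2 was lost without SETD2-mutant replicate 2, with an adjusted p of 0.088. MTHFD1 was at -0.96 with an adjusted p of 0.117, but it was 0.00478 without parental replicate 1 and 0.00473 without parental replicate 2. FPGS, which adds glutamates to folate, was at -0.49 and not called.

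Of 24 genes of fatty acid and CoA synthesis 9 fell, among them the elongation enzyme HSD17B12 at -3.52, the desaturase SCD at -3.13, MCAT and OXSM of mitochondrial fatty acid synthesis at -2.56 and -2.48, and ACLY, which cleaves citrate to acetyl-CoA in the cytosol, at -2.02. The mevalonate and cholesterol list gave 4 depleted and 1 enriched of 17. Its depleted members included the early enzymes HMGCS1 at -3.58, PMVK at -2.95 and MVK at -2.43. DHCR7, the last step to cholesterol, was the enriched member at 0.56, with an adjusted p of 0.0295. The call of DHCR7 was lost without either library replicate, either parental replicate or SETD2-mutant replicate 2, with adjusted p between 0.0885 and 0.101. SCAP, which escorts the transcription factors that switch these genes on, changed by -4.64. Of 11 subunits of the vacuolar ATPase, the pump that acidifies lysosomes, 5 fell and 1 rose. ATP6V0C and ATP6V0B changed by -6.16 and -3.79, and ATP6V0E2, named after its values were seen, by 0.80.

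Among chromatin genes the list of H3K36 methylation readers and a partner subunit gave 5 depleted and 1 enriched of 22. The list's median was -0.05, that of all genes. Depleted readers were MTF2, a Polycomb accessory protein, at -1.44, and MSL3 of the MSL acetyltransferase complex at -1.27. BRPF1 and BRD1, scaffolds of MOZ and HBO1 acetyltransferases, were at -1.15 and -1.14. MRGBP of the TIP60 complex, a partner subunit and not itself a reader, was at -1.94. MORF4L1 of that complex was at -0.00089 and not called. MTF2 had levels of 20.7 and 20.4 CPM in the library and 9.36 and 9.11 in the mutant samples, without overlap, and an adjusted p of 0.000446. The other 4 depleted members each lost their call when a sample was left out. Without SETD2-mutant replicate 2 the adjusted p was 0.0505 for MRGBP, 0.351 for BRPF1 and 0.111 for BRD1, and without replicate 1 it was 0.129 for MSL3. MRGBP was also lost without library replicate 1, with 0.063, and BRPF1 without parental replicate 1 or 2, with 0.108 and 0.115. GLYR1, a nucleosome-binding reader named after its values were seen, was enriched at 0.62, and its call was lost without SETD2-mutant replicate 2 or either parental replicate, with adjusted p of 0.115, 0.0697 and 0.0663.

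PRC2, which methylates lysine 27 of histone H3, gave 3 depleted genes of 11 and a median of -0.61. RBBP4, a histone-binding protein that PRC2 shares with NuRD and SIN3 complexes, changed by -3.16, MTF2 by -1.44 and SUZ12, a core subunit, by -1.19. The call of SUZ12 was lost without any of the 4 cell-line samples, with adjusted p of 0.102 and 0.109 without parental replicates 1 and 2 and 0.0656 and 0.396 without SETD2-mutant replicates 1 and 2. PRC1, which ubiquitylates histone H2A, gave no call among 26 genes with a median of 0.10. Its most changed members were KDM2B at -1.92, SCMH1 at -0.94 and BCOR at -0.75. H3K9 methylation and the HUSH complex gave 2 of 14, CBX3 at -1.40 and MPHOSPH8 at -0.94, beside 9.04% depleted over all genes. CBX3 was lost without SETD2-mutant replicate 1, with an adjusted p of 0.0843. MPHOSPH8 was lost without library replicate 2, parental replicate 2 and SETD2-mutant replicates 1 and 2, with 0.323, 0.136, 0.533 and 0.164. DNA methylation gave 1 depleted gene, the maintenance enzyme DNMT1 at -1.72, and 1 enriched gene, the methyl-CpG binder MBD2 at 1.01, of 13.

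Deacetylase complexes were called in a few members. HDAC3 (chromosome 5, 141620881 to 141636849), the deacetylase of the NCoR complex, had levels of 16.5 and 17.4 CPM in the library and 4.07 and 4.47 in the mutant samples. The groups did not overlap, the change was -2.43 with an SE of 0.483 and an adjusted p of 0.000116, and all 10 guides were lower. The other 3 measured genes of that complex were not called. SIN3 complexes gave 6 of 23, including SAP18 at -2.65 and the scaffold SIN3A at -2.54. SAP18 was lost without SETD2-mutant replicate 1 or 2, with adjusted p of 0.0846 and 0.131. NuRD gave 2 depleted and 1 enriched of 14: RBBP4, the remodeller CHD4 at -1.03 and MBD2. Over all genes 9.04% were depleted and 1.11% enriched. CHD4 was lost without library replicate 2 and without SETD2-mutant replicates 1 and 2, with 0.14, 0.138 and 0.405.

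Methylation of lysine 4 of histone H3 gave 8 depleted genes of 18, with a median of -1.02. They included WDR5 at -3.94, with levels of 26.3 and 26.7 CPM against 1.76 and 1.6, WDR82 of the SET1 complexes at -3.85, HCFC1 at -3.17, ASH2L at -2.40 and RBBP5 at -2.24. The SAGA coactivator gave 5 of 19, with ENY2 at -3.38, the scaffold TRRAP, shared with TIP60, at -2.94, and ATXN7L3 at -2.72. The list of PAF1 complex, H2B ubiquitin ligase and DOT1L genes gave 6 depleted and 1 enriched of 15. SUPT6H, an elongation factor that also binds SETD2, changed by -3.21, SUPT16H and SSRP1, the FACT chaperone, by -2.70 and -2.02, CTR9 by -1.87 and CDC73 by -1.66. The enriched member was MLLT1, a YEATS-domain reader, at 0.46. MLLT1 had 119 guides, of which 109 carried the ID class CTRL, whose meaning the labels do not give. The 10 other guides changed by 0.49 with an SE of 0.138, and the 109 by 0.46 with an SE of 0.0809.

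Of 31 genes of the INO80, TIP60 and SRCAP remodellers 21 fell, with a median of -1.61. The helicases RUVBL2 and RUVBL1 changed by -3.74 and -3.72, ACTR6 of SRCAP by -3.72 and the acetyl-lysine reader YEATS4 by -3.0. By contrast SWI/SNF, the BAF remodeller family, gave 1 of 22 with a median of -0.12. That gene was ACTL6A, an actin-related protein that also belongs to INO80 and TIP60, at -5.01, and the ATPase SMARCA4 and the core subunit SMARCC1 were at -0.49 and -0.58. ISWI and CHD remodellers gave 8 of 23, led by SMARCA5 at -1.63 and BAZ2A at -1.60. Histone acetyltransferases and their scaffolds gave 10 of 25, with KAT8 at -2.58, its partner KANSL3 at -2.17 and KAT5 at -1.73.

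Of 8 arginine methyltransferases and cofactors 4 fell: PRMT5 at -4.58, PRMT1 at -4.12, WDR77, the partner of PRMT5, at -3.31, and CARM1 at -1.47. Of 19 histone chaperones 8 fell, with a median of -1.12, including TONSL at -2.53, HJURP, which loads the centromeric histone, at -2.15, and DAXX at -2.13. BRD2, which binds acetylated histones, changed by -0.99. JmjC demethylases gave 2 depleted and 2 enriched of 25, beside 9.04% depleted and 1.11% enriched over all genes. KDM8 changed by -2.60 and KDM2A, which removes methyl groups from H3K36, by -1.79. The enriched members were UTY at 0.72 and KDM5C, which acts on lysine 4, at 0.52, beside medians of 0.44 and 0.20 over the uncalled genes of their chromosomes Y and X, and KDM5C was lost without SETD2-mutant replicate 2, with 0.101.

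Among signalling genes, activators of mTORC1 and PI3K signalling gave 6 depleted genes of 14: the kinase PDPK1 at -2.87, the GTPase RHEB at -2.63, RPTOR at -1.91 and MTOR at -1.77 were among them. BCR, ABL and SRC-family kinases and adaptors gave 1 of 14, the adaptor CRKL at -1.88, while BCR and ABL1, joined by the translocation of chronic myeloid leukaemia, were at -0.50 and -0.21 and not called. For BCR the SE was 0.698, and 6 of 10 guides were above the library, with a median over guides of 0.16. ABL1 was named after its values were seen. The share depleted in this list and in the RAS-to-ERK list was near the 9.04% over all genes. MAP2K1 was the member called of 11 RAS-to-ERK genes, at -0.73, and was lost without parental replicates 1 and 2 and SETD2-mutant replicate 1, with adjusted p of 0.132, 0.133 and 0.101. MYC changed by -5.12 and its partner MAX by -2.28, the 2 members called of 6. Of 12 cullin ligase genes 5 fell, with RBX1 at -3.65, CUL5 at -2.88, SKP1 at -2.69 and CUL1 at -1.61.

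Of 10 measured members of the BCL2 family, which holds proteins that protect from apoptosis and proteins that promote it, 4 fell and 1 rose. MCL1 (chromosome 1, 150574558 to 150579610), which holds apoptosis in check, had levels of 6.97 and 7.39 CPM in the library and 0.14 and 0.148 in the mutant samples. Nearly all of its guide counts were gone, and the change was -6.69 with an SE of 0.987 and an adjusted p of 1.53e-06. BCL2L1 and BCL2L2, related protectors, changed by -2.06 and -1.88, and BCL2 by -1.06. BAX, which opens the mitochondrial outer membrane, changed by 0.61. BCL2 was lost without any library or SETD2-mutant sample, with adjusted p of 0.0604 and 0.0539 without library replicates 1 and 2 and 0.135 and 0.274 without SETD2-mutant replicates 1 and 2. BAX was lost without SETD2-mutant replicate 1 or 2, with 0.189 and 0.145.

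NF2 had the largest gain of the genes tested. NF2 (chromosome 22, 29603556 to 29698600) encodes merlin, which activates the Hippo kinases. Its level was 10.9 and 11.5 CPM in the library and 56.3 and 55.2 in the mutant samples, far above the library in both. The change was 2.49 with an SE of 0.178, an adjusted p of 7.32e-24 and replicate values of 2.48 each, and its 10 guides ranged from 1.61 to 3.13. The guide that rose most went from 977 and 953 counts in the library to 5806 and 7716. Of 9 Hippo brakes NF2 and TAOK1, a kinase upstream of the Hippo kinases, rose, the latter by 0.84, LATS1 was at 0.43 and not called, and the effector YAP1 was at -0.20 and not called. SLC25A1 (chromosome 22, 19175581 to 19178736), the carrier that exports citrate from mitochondria, followed, with levels of 21.4 and 21.2 CPM in the library and 57.5 and 55.0 in the mutant samples. Both mutant samples were above both library samples, and the change was 1.46 with an SE of 0.085 and an adjusted p of 9.64e-13.

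Other enriched genes, only some of them known to restrain growth, rose less. PIK3R1, the regulatory subunit that restrains PI3K, changed by 1.10, with levels of 30.5 and 31.3 CPM against 60.1 and 64.8. RB1, which restrains entry into S phase, changed by 0.51. RB1 was lost without SETD2-mutant replicate 1, with an adjusted p of 0.0546. MDM2, a ubiquitin ligase, fell by 0.93, and was lost without library replicate 2 or SETD2-mutant replicate 2, with 0.0526 and 0.09. Among brakes of mTORC1 and PI3K, PIK3R1 was the 1 enriched gene of 8, and TSC1 and NPRL2 were at -1.14 and -0.84. TSC1 had an adjusted p for depletion of 0.0894, and of 0.041 without library replicate 1. Among the enriched genes with the lowest p were also GSTT1 at 1.01, the melanocortin receptor MC4R at 0.83, PAPD7 at 0.77, the corepressor CTBP1 at 0.74 and the casein kinase subunit CSNK2A2 at 0.70.

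The changes in the parental cells are given beside those of the mutant cells, and since both are taken from the same library samples, each gene named was also tested directly between the lines. In that test 91 genes were lower in the mutant, 1.28%, and 73 higher, 1.03%. Of the 641 depleted genes 58 were lower than in the parental cells, 12 were higher and 571 were not called in that test. Of the 79 enriched genes 8 were higher, 1 was lower and 70 were not called. Both tests use the same mutant samples, so these counts are a description. The 10 with the largest difference downwards were MCL1, NHP2L1, ACTL6A, SCAP, CUL5, DPH1, SLC25A3, HDAC3, NDUFC2 and NSD1. MCL1 changed by -6.69 in the mutant and -3.89 in the parental cells, so both lines lost its guides. HDAC3 changed by -2.43 and -0.64, and CUL5 by -2.88 and -0.75. DPH1, which starts the diphthamide modification of elongation factor 2, changed by -2.69 and -0.72.

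NSD1 differed in sign between the lines, -0.96 in the mutant and 0.80 in the parental cells, and MTF2 did too, at -1.44 and 0.27. IDH3B was at -1.14 in the mutant and 0.17 in the parental cells. Complex I had a median of -2.35 in the mutant and -1.13 in the parental cells, and 9 of its 18 genes were lower by the direct test. KEAP1, the adaptor that marks NRF2 for degradation, changed by -1.74 and -0.26, and SLC16A1 by -2.31 and -0.97. CSK, which restrains SRC kinases, was at -0.65 and 0.71 and was lower by the direct test, but was not called against the library.

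Upwards, the 7 genes called in both tests and named here were SLC25A1, PDHA1, NF2, PDHB, CDK8, DLAT and PHF6. SLC25A1 changed by 1.46 in the mutant and -0.07 in the parental cells, and PDHA1 by 1.19 and 0.00. NF2 lay above the library in both, at 2.49 and 1.33. CDK8, a kinase of the Mediator complex, changed by 0.71 and -0.11, and PHF6 by 0.53 and 0.06. CDK8 was lost against the library without parental replicate 1 or 2 or SETD2-mutant replicate 2, with adjusted p of 0.0824, 0.0849 and 0.0802, and PHF6 without SETD2-mutant replicate 1, with 0.101.

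Some genes far below the library in the parental cells were not called in the mutant. CAD was at -3.33 in the parental and 0.12 in the mutant cells, UMPS at -2.54 and 0.00, and DHODH at -1.59 and 0.14, and all 3 were higher in the mutant by the direct test. The pyrimidine list had a median of -1.59 in the parental and 0.12 in the mutant cells, and the purine list -2.38 and -1.14. Of 11 purine genes 5 were higher by the direct test, including ATIC at -2.38 and -0.51 and PAICS at -3.78 and -2.04. ITPK1, an inositol phosphate kinase, was at -1.18 and 0.32. In the SAGA list 7 of 19 genes were higher in the mutant, with medians of -1.02 and -0.36.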

How the data were processed

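Guide abundance was measured by sequencing guides amplified from genomic DNA, as single-end reads of 75 bp per the labels' protocols. The authors deposited raw counts per guide, whole numbers with no scaling, and the submitters' processing notes name MAGeCK and hg38 with no role or settings. Samples were grouped by the genotype and title in the labels.

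The filter of 30 library counts on average left out 56 guides, and the 100 labelled dummyguide were not tested. Counts were scaled with TMM and fitted over all 6 samples by group with edgeR 4.0.16 in R 4.3.3 (glmQLFit, robust, glmQLFTest). MAGeCK was not run: RRA was rebuilt with an exact null distribution and a rank share limit of 0.25, for genes with 3 or more guides, with Benjamini-Hochberg adjustment in each direction over 7090 genes. The p-values are one-sided per direction. The procedure was tested on simulated data. Symbols were matched to RefSeq's GRCh38 table: 6757 are current there, 316 are older synonyms and 17 were not found.

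The members and the 65 gene lists were chosen with earlier results of these data known. Named were the measured H3K36 methyltransferases and, by lowest RRA p, 20 depleted and 15 enriched genes. Up to 5 members of each list were also named (called ones before others, then by size of change). Added were up to 10 genes in each direction with the largest difference between the lines, among those called the same way in both tests. Upwards 8 genes were called in both tests. Some genes chosen in this way are left unreported. The 17 alternatives covered scaling, filters, DESeq2 1.42.0, limma 3.58.1, summed counts, the rank limit, a replicate term and each sample left out.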

Additional observations from a re-analysis of the deposited data

Results flagged for a closer look

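For 56 of the genes named, the change from the library differed between SETD2-mutant and parental cells by the direct test of the 2 lines with edgeR and RRA at an adjusted p below 0.05. Some were named because of this test or after their values were seen, so this count is a description. Over all genes tested 1.28% were lower in the mutant and 1.03% higher. Values are the log2 difference, mutant minus parental, and the mutant samples are those also compared with the library.

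Lower in the mutant among respiratory and citric acid cycle genes were NDUFC2 at -1.85, NDUFB8 at -1.68, COX4I1 at -1.62, IDH3A at -1.54, ACAD9 at -1.52, NDUFA11 at -1.37, NDUFA1 at -1.33 and IDH3B at -1.31. Carriers and lipid genes followed, with SCAP at -2.27, the phosphate carrier SLC25A3 at -1.86, SCD at -1.54 and SLC16A1 at -1.33, and the mitochondrial superoxide dismutase SOD2 was at -1.75. Among chromatin genes, ACTL6A was at -2.33, HDAC3 at -1.79, NSD1 at -1.77, MTF2 at -1.71, WDR82 at -1.67, WDR5 at -1.22 and CARM1 at -1.11. RBBP4 was at -0.98, MSL3 at -0.97, BRPF1 at -0.76, SCMH1 at -0.75, BCOR at -0.68 and KDM5C at -0.53. Against the library SCMH1 and BCOR were not called, and KDM5C was enriched in the mutant at 0.52 and lay further above the library in the parental cells. Genes of survival, signalling and protein turnover were MCL1 at -2.80, CUL5 at -2.13, TSC1 at -1.67, NPRL2 at -1.51, KEAP1 at -1.48, CSK at -1.36 and BCL2L2 at -1.14. Of these TSC1, NPRL2 and CSK were not called against the library. NHP2L1 was at -2.56 and DPH1 at -1.97.

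Higher in the mutant among nucleotide and folate genes were CAD at 3.45, UMPS at 2.54, GART at 1.94, ATIC at 1.87, DHODH at 1.74, PAICS at 1.74, MTHFD1 at 1.54, FPGS at 1.26 and PFAS at 1.07. Mitochondrial genes that were higher were SLC25A1 at 1.53, PDHA1 at 1.18, PDHB at 1.13, DLAT at 0.71 and SDHD at 0.32. The others were ITPK1 at 1.5, TKT of the pentose phosphate pathway at 1.44, NF2 at 1.16, CDC73 at 0.85, CDK8 at 0.82, SETD2 at 0.50 and PHF6 at 0.46. SETD2 is the gene mutated in the mutant line.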

How the results depend on the processing

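Of the genes named, 125 of 160 depleted and 7 of 24 enriched kept their call under all 17 alternatives. Dummyguide scaling gave each named enriched gene a shift of about -0.92, which by construction turns the sign of enriched genes with a smaller change, 17 of those named: ATP6V0E2 to -0.12, BAX to -0.31, CDK8 to -0.22, CSNK2A2 to -0.23, CTBP1 to -0.18, DHCR7 to -0.36, DLAT to -0.13, GLYR1 to -0.31, ITPKB to -0.26, KDM5C to -0.40, MC4R to -0.10, MLLT1 to -0.46, PAPD7 to -0.16, PHF6 to -0.40, RB1 to -0.41, TAOK1 to -0.084 and UTY to -0.20. Under the same scaling 35 genes were called enriched against 79, not all with a change above 0, and 491 of the 641 depleted genes stayed called. A rank share limit of 0.1 lost the calls of 34 named genes, NSD1 among them. Tests on 1 value per gene called more: limma on mean log2 CPM gave 2693 depleted, 1687 enriched, 1561 lower and 895 higher, and edgeR on summed counts 2320, 2138, 1503 and 1417. With each sample left out, depleted genes numbered 589 to 642, enriched 50 to 85, lower 63 to 89 and higher 68 to 81, the 50 without SETD2-mutant replicate 1. Each of these totals holds genes not called with all samples and lacks some that were. Library, parental and SETD2-mutant samples share replicate numbers, but deviations of same-numbered samples correlated at -0.0025 to -0.0051 over guides. No pairing by number was seen in the counts. This correlation cannot show how the samples were handled, since each group has few samples. With the replicate block the counts were 642 depleted, 84 enriched, 88 lower and 84 higher. Depth limits the deepest losses, since 344 and 192 guides had no count in the mutant replicates and their fitted changes depend on the prior count. The labels give no number of clones, so effects of the SETD2 mutation and of the cells that carry it cannot be told apart.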

Other observations

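Of 48 measured mitochondrial carriers 2 fell and 1 rose in the SETD2-mutant cells, with a median of 0.01. The phosphate carrier SLC25A3 changed by -3.53 and SLC25A26, which imports S-adenosylmethionine, by -3.48, opposite to SLC25A1. SLC25A51, which imports NAD, was at -1.13 and not called, but without SETD2-mutant replicate 2 its adjusted p by edgeR and RRA was 0.00489. Of 20 glutathione and thioredoxin genes 2 fell, the superoxide dismutases SOD2 at -3.93 and SOD1 at -2.40. Of 6 inositol phosphate kinases ITPKB rose by 0.67, and was lost without SETD2-mutant replicate 1, with an adjusted p of 0.206. None of 10 peroxisome genes, 8 genes of NAD synthesis or 61 orphan GPR receptors was called, with medians of -0.15, -0.25 and 0.07.

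Guide IDs carry a class that the labels do not explain. The median change of single guides was -4.04 over 456 guides of class CTRLe, -0.83 over 1975 of class DDR, -0.18 over 8160 of class EPI, and between 0.04 and 0.08 in the classes CTRL, KIN, MET, ODT and SRF.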
